A study of Populus tremula x Populus alba with 8 samples.

Results

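The probes described here were the 165 brightest of the 3298 poplar cDNA probes on a spotted array hybridised with RNA from hybrid poplar stems. They were chosen by level, which is the log2 of spot intensity minus local background, averaged over the spots of a probe, both dye channels and 8 arrays. Of the 3298 probes, 3236 had a level on every array and could be ranked. The level therefore describes these probes and was not tested, whereas the ratio between the genotypes played no part in the choice.

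The study asked how transcript levels changed in trees that overexpress PtaHB1, a gene of the HD-Zip III family (homeodomain-leucine zipper, class III). Both genotypes were made in the Populus tremula x Populus alba clone INRA-717. PtaHB1 trees carried the complete PtaHB1 coding sequence behind the maize ubiquitin promoter, written UBI::PtaHB1. By the methods, control trees carried the empty vector. Each of 4 numbered replicates was hybridised on 2 arrays of opposite dye orientation, with PtaHB1 RNA in Alexa 555 and control RNA in Alexa 647 or the reverse. The maize ubiquitin promoter is used as a promoter active in most plant tissues, and where the transgene was expressed in these trees was not measured here. The methods describe 4 trees per genotype from 2 transformation events each, but the labels name no tree or line, and the p-values below measure the spread between numbered replicates. The labels give the tissue of both channels as secondary xylem, and the methods give primary stem.

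In a stem, a small set of genes usually supplies a large part of the messenger RNA. Transcripts for protein synthesis, the cytoskeleton, water transport and, where xylem forms, cellulose and lignin deposition are commonly among the most abundant. HD-Zip III proteins are transcription factors known from Arabidopsis to act in shoot meristems, organ polarity and vascular differentiation. On a cDNA array, spot brightness rises with the abundance of the matching transcript, but also with the length of the cDNA, the amount of DNA spotted and hybridisation of related transcripts. A rank by level is therefore a rank of spot brightness, and whether the brightest spots stand for the most abundant transcripts could not be checked. The files pair no probe with a gene or a sequence, so probes are given by their identifiers and the tissue could not be checked against marker genes.

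The 8 arrays had median probe intensities between 798 and 1687 over median backgrounds between 117 and 288, and 3 to 78 probe spots per array were marked for exclusion by the image software. Spots named HPH, which was taken as the hygromycin resistance gene of the vector, gave 4.27 to 9.58 times the signal of DMSO-only spots in the PtaHB1 channels of replicates 1 to 3 and 1.28 to 2.77 times in their control channels. In replicate 4 these values were 0.864 to 0.882 and 0.899 to 0.968, so both channels of that replicate lay at the level of spots without DNA. Replicate 4 therefore stood apart, and some of the results that rest on it, though not all, are also given without it. By the methods both genotypes carried the vector, yet HPH signal was lower in the control channels of replicates 1 to 3. The reason for this and for the values of replicate 4 was not tested. A probe for PtaHB1 itself could not be identified, so the genotype labels were not checked by the targeted gene.

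The levels of the 165 probes lay between 13.23 and 15.92 with a median of 13.79 on the log2 scale. The probe with the highest level was at least 6.48-fold brighter than that with the lowest, as most spots of the former were at the scanner's ceiling, and the median was 14.9-fold above the median of all ranked probes. Spots without DNA, 468 per array, had a median level of 8.38 and a 95th percentile of 8.86. The lowest of the 165 probes was 20.6-fold above that percentile.

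**Figure D1:**
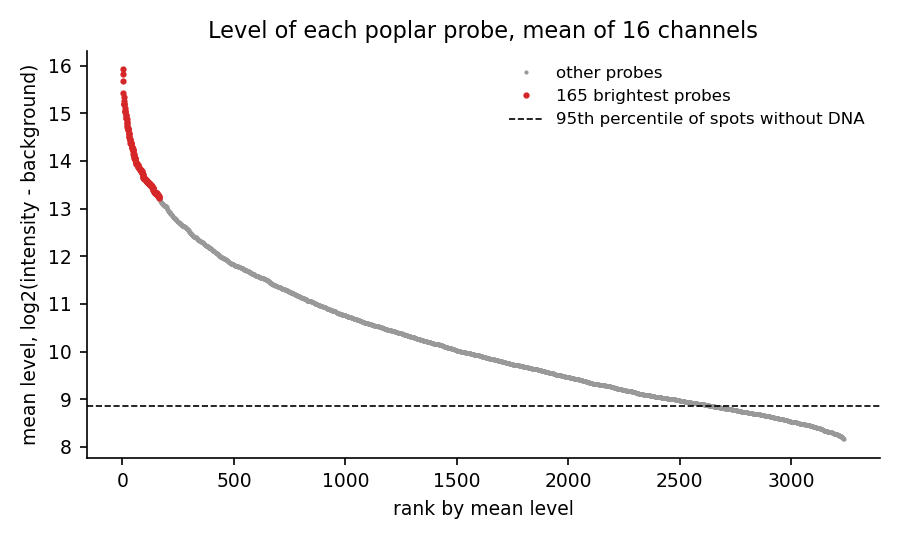
Mean level of each of 3236 ranked poplar probes over 16 array channels, as log2 of intensity minus background (vertical axis), by rank (horizontal axis). The 165 brightest probes lie between 13.23 and 15.92, and the dashed line at 8.86 is the 95th percentile of spots without DNA.

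No gap separated the brightest probes from the rest. The last probes inside were MN5188151, MN5185545 and MN5188618 with levels of 13.25, 13.24 and 13.23, and the first outside were MN5183182, MN5184130 and MN5187797 with 13.21, 13.20 and 13.19. The curve was flat at this point, and 47 of the 165 probes lay above the lowest by more than 1 on the log2 scale. Membership near the limit varied from channel to channel. Of the 165 probes, 78 were among the brightest 165 in all 16 channels and 9 in 8 channels or fewer, with a median of 15 channels and a minimum of 6. Any one channel held between 131 and 153 of them among its own brightest 165.

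The choice depended little on how the level was averaged. All 165 probes were kept with normexp background correction, 162 by mean rank over the channels, and 159 to 162 when a replicate was left out. From the PtaHB1 channels alone 159 were kept, and from the control channels alone 164. When each genotype was ranked by itself, 158 probes were among the brightest of both, 7 of PtaHB1 only and 7 of control only.

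Among the 62 probes that lacked a level on at least 1 array, 7 averaged above the lowest level of the 165, at 13.41 to 15.53 over the channels that measured them. MN5183942, at 15.53, was higher than all but 3 of the 165. MN5189945 and MN5189892 were also among the 7, and their mean log2 ratios are given with the ratios below.

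A few of the brightest probes were dim on arrays of replicate 4. MN5183371 had levels of 8.44 and 8.56 in the channels of the replicate 4 array with PtaHB1 in Alexa 555, against a median of 14.05 over its 16 channels. On the same array MN5189889 had 9.997 and 10.21, against a median of 14.08, and on the other array of replicate 4 it had 12.40 and 13.05. In both cases the channels of an array were low together. By contrast, MN5189799 was low mainly in the PtaHB1 channels, with a level of 10.74 on the first array against 13.58 for control, and 12.23 on the other array, against a median of 14.41.

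The spots of the 165 probes were larger than others, with a median area of 17637.5 square micrometres (range 15584.4 to 19293.8) against 13059.4 for the other probes, and as the image software sets area and intensity from the same spot, this was not tested. The array was printed by 24 tips, and the number of these probes per tip ranged from 0 of 135 for tip 13 to 17 of 139 for tip 21, or from 0% to 12.2% of a tip's probes. Tip 11 printed 13 of them, including 5 of the 10 brightest.

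The scanner's ceiling of 65535 limited some of the brightest spots. A saturated spot occurred for 11 of the 165 probes and for 14 of all probes, and these 11 accounted for 62 of the 71 saturated probe spots. MN5189882, the brightest probe, was at the ceiling in 10 of 16 spot measurements for PtaHB1 and in 14 of 16 for control. MN5189161 was at the ceiling in 6 and 8 of 16, MN5189719 in 5 and 7, and MN5189165 in 7 and 6. A saturated spot gives only a lower bound on its signal, so the ratios of these 4 probes are not full measurements.

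The share of the total probe signal carried by the 165 probes was 34.4%, 34.4%, 37.0% and 36.4% in the PtaHB1 channels of replicates 1 to 4 (mean 35.5% ± 1.34, SD, n = 4). In the control channels it was 35.3%, 34.9%, 37.2% and 37.6% (mean 36.3% ± 1.34, SD, n = 4). The ranges of the genotypes overlapped, but within each replicate the share was lower for PtaHB1. The difference, PtaHB1 minus control, was -0.939, -0.490, -0.221 and -1.21 percentage points (mean -0.716 ± 0.444, SD, n = 4). An exact two-sided permutation test over the signs of the 4 differences gave p = 0.125 (0.188 adjusted over the 3 probe sets compared), and 0.125 is the smallest p that 4 replicates allow. Without replicate 4 the mean difference was -0.550 percentage points. With the 14 probes that had a saturated spot left out of both sums, 11 of them from the 165, the shares were 32.2% and 32.5%. The difference was then -0.336 percentage points and negative in 3 of 4 replicates (exact two-sided permutation p = 0.375). In RNA from a whole tissue, fewer cells of a type and less RNA per cell cannot be told apart.

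The shares of narrower and dimmer sets were compared in the same way. The 10 brightest probes alone carried 5.29% of the signal in PtaHB1 and 5.75% in control, a difference of -0.455 ± 0.404 percentage points (SD, n = 4; exact two-sided permutation p = 0.125, adjusted 0.188). Of these 10 probes, 8 had saturated spots, with 31 of 160 spot measurements at the ceiling in PtaHB1 and 46 of 160 in control, so both shares were clipped, and unequally. The next 165 probes by level carried 14.5% and 14.3%, and their difference of 0.119 percentage points was positive in 3 of 4 replicates (exact two-sided permutation p = 0.375). The difference in share was thus negative in 4 of 4 replicates for the brightest probes with saturated spots included and of mixed sign for the next, and the difference between these sets was not tested.

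The share also differed between the dyes. It was higher in Alexa 647 than in Alexa 555 by 0.819, 1.71, 1.61 and 1.91 percentage points in replicates 1 to 4 (mean 1.51 ± 0.479, SD, n = 4; exact two-sided permutation p = 0.125). It was higher in Alexa 647 on 7 of 8 arrays. With PtaHB1 in Alexa 555 the control share was higher on 4 of 4 arrays, and with PtaHB1 in Alexa 647 the PtaHB1 share was higher on 3 of 4. In the mean of a replicate, which holds both orientations, the dye cancels only as far as its effect was equal on both arrays. Whether it was equal was not tested, and an unequal dye effect cannot be told apart from a difference between the genotypes.

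**Figure D2:**
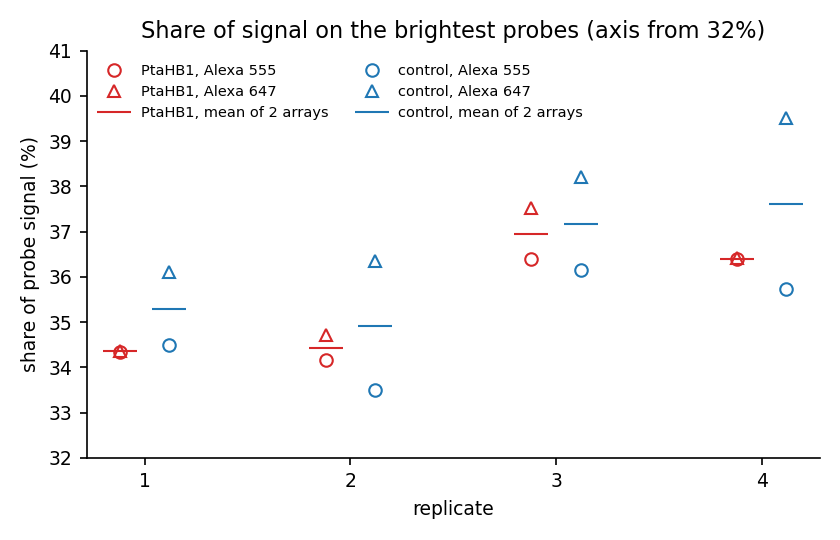
Share of probe signal on the 165 brightest probes (vertical axis, in %, starting at 32%) by replicate (horizontal axis), for PtaHB1 and control in each dye. Horizontal marks are means of 2 arrays and run from 34.4% to 37.0% for PtaHB1 and from 34.9% to 37.6% for control.

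The genotypes were then compared probe by probe. Each ratio is the log2 of PtaHB1 over control after normalization, averaged over the 2 arrays of a replicate, with the direction set by the labels and by the dye order in the scanner files. The deposited table of log ratios ran the other way on all 8 arrays (r = -0.981 to -0.866 across probes). Directions given here therefore oppose those of the study, and a sign called positive here is negative there. The study reported that RT-qPCR matched its own array direction for most genes assayed, while the others showed no difference or a conflict. Which direction holds was not tested, so higher and lower in PtaHB1 mean higher and lower by the labels. The median ratio of the 165 probes was -0.04, with quartiles of -0.12 and 0.06 and a range from -0.80 to 0.50. Over all 3298 probes the median was -0.004, with quartiles of -0.09 and 0.08 and a range from -0.96 to 1.19. The ratio was above 0 for 65 of the 165 probes (39.4%) and for 1605 of all probes (48.7%). The medians of replicates 1 to 4 were -0.03, -0.01, -0.04 and -0.03, with 63, 82, 74 and 71 of the 165 probes above 0. The median of the 165 depended on the normalization. It was -0.022 when spot intensity alone was fitted and -0.058 when only the array median was centred. Whether a trend of the ratio with level remained at the bright end was not tested.

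No probe passed the test for a difference. By limma with Benjamini-Hochberg adjustment over all probes at 0.05, 0 of the 165 probes were higher and 0 lower in PtaHB1, as were 0% of the 3298 probes in either direction, and the lowest adjusted p was 0.604. At an unadjusted p under 0.05, 5 of the 165 were higher (3.03%, against 3.85% of all probes) and 10 were lower (6.06%, against 3.88%). SAM, the method named in the study and run here as a one-class test written for this work, gave 0 of the 165 probes over 4 replicate means. Over the 8 columns of the deposited table, with their sign turned to PtaHB1 over control and taken as independent, it gave 2 higher (1.21%, against 1.21% of all probes) and 2 lower (1.21%, against 0.243%). That setting counts each replicate as 2 samples.

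Probes with the same sign in all 4 replicates were not more frequent among the brightest than on the whole array in the positive direction, with 6 of 165 (3.64%) against 8.19% of all probes. In the negative direction there were 16 of 165 (9.7%) against 7.85%. MN5183510 had the highest positive mean, with log2 ratios of 0.34, 1.04, 0.27 and 0.33 in replicates 1 to 4. Replicate 2 lay far above the other replicates and did so in both dye orientations, with 1.07 and 1.01. The mean was 0.50 ± 0.36 (SD, n = 4; limma adjusted p = 0.604), and it was 0.31 without replicate 2 and 0.55 without replicate 4. Its levels averaged 14.65 in PtaHB1 and 14.11 in control.

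MN5187061 differed less but more evenly. Its log2 ratios were 0.25, 0.19, 0.33 and 0.18 (mean 0.24 ± 0.07, SD, n = 4; limma adjusted p = 0.604), and all 8 arrays were positive. MN5182816 had a like mean with a wider spread, at 0.08, 0.46, 0.30 and 0.11 (mean 0.24 ± 0.18, SD, n = 4; limma adjusted p = 0.639). MN5187539 and MN5184662 followed with means of 0.16 and 0.15. MN5183510 and MN5187061 were those that SAM gave as higher in PtaHB1 on the deposited table with its sign turned.

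Of the 5 probes with the largest negative means among those of 1 sign, MN5183198 had the lowest spread. Its log2 ratios were -0.32, -0.28, -0.32 and -0.42 (mean -0.34 ± 0.06, SD, n = 4), and its unadjusted limma p of 0.00295 was the lowest of the 165 (adjusted p = 0.604). MN5184084 had -0.19, -0.56, -0.47 and -0.22 (mean -0.36 ± 0.18, SD, n = 4). In MN5184242 replicates 2 and 3 were likewise the lowest, at -0.13, -0.53, -0.51 and -0.17 (mean -0.34 ± 0.21, SD, n = 4). MN5182912 had its low values in replicates 2 and 4 instead, at -0.20, -0.51, -0.20 and -0.49 (mean -0.35 ± 0.17, SD, n = 4). Its 2 arrays of replicate 3 had opposite signs, at -0.548 and 0.151. MN5186480 had a mean of -0.28, or -0.17 without replicate 3, its most negative replicate. The adjusted p was 0.604 for MN5184084, MN5182912 and MN5184242 and 0.639 for MN5186480 by limma. SAM gave MN5183198 and MN5184242 as lower in PtaHB1 on the deposited table with its sign turned.

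**Figure D3:**
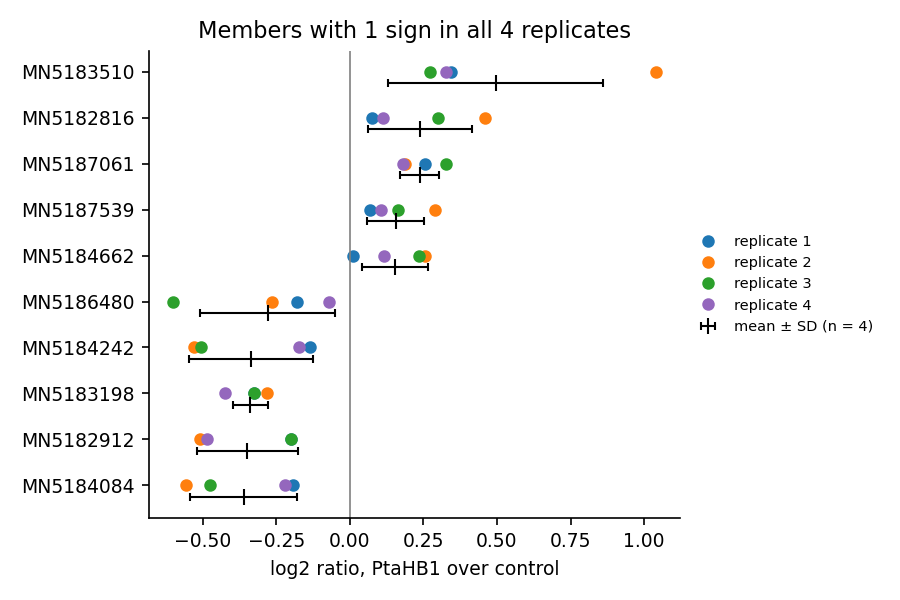
Log2 ratio of PtaHB1 over control (horizontal axis) in each of 4 replicates (coloured points) for the 10 probes with the largest positive or negative mean among those with 1 sign in all replicates, with the mean ± SD below each. Means run from -0.36 for MN5184084 to 0.50 for MN5183510, and the replicate 2 point of MN5183510 lies at 1.04.

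The 10 brightest probes had mean log2 ratios between -0.60 and 0.07, and none kept 1 sign in all replicates except MN5189719. For the brightest, MN5189882, the ratios were -0.26, -0.09, 0.03 and 0.16 (mean -0.04), with most of its spots saturated. MN5189161 had 0.004, -0.15, -0.04 and -0.21 (mean -0.10), and MN5189719 had -0.23, -0.08, -0.05 and -0.26 (mean -0.16 ± 0.11, SD, n = 4). All 3 probes had saturated spots, and their limma adjusted p lay between 0.684 and 0.928. MN5185686, at rank 9 by level, had -0.15, -0.56, -0.86 and 0.12 (mean -0.36 ± 0.43, SD, n = 4; limma adjusted p = 0.639), so that replicate 4 was positive and the other replicates negative. Its mean was -0.20 without replicate 3. The other probes of the 10 apart from MN5189165, namely MN5183717, MN5183747, MN5186380, MN5190400 and MN5190361, had means from -0.04 to 0.07.

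Differences of more than 1 on the log2 scale occurred in at least 1 replicate for 6 of the 165 probes (3.64%), against 53 of all probes (1.61%). By replicate, 0, 3, 2 and 5 of the 165 probes passed this size, against 4, 23, 29 and 20 of all probes. Apart from MN5183510, the 6 probes had their lowest ratio in replicate 4 and, except for MN5189165 and MN5189799 in replicate 2, a positive ratio only in replicate 1. MN5189799 had 0.71, 0.90, -1.27 and -2.46 (mean -0.53 ± 1.62, SD, n = 4; limma adjusted p = 0.812), the widest spread of the 165. Its arrays of replicate 4 gave -2.99 and -1.93, and those of replicate 2 gave 0.60 and 1.20, so the swing was present in both dye orientations. Without replicates 1, 2, 3 and 4 in turn its mean was -0.94, -1.004, -0.28 and 0.12.

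MN5189165, at rank 4 by level, also changed sign between replicates, at 0.36, 0.05, -1.16 and -1.63 (mean -0.60 ± 0.95, SD, n = 4; limma adjusted p = 0.660). Its mean was -0.25 without replicate 4 and -0.91 without replicate 1. With saturated spots left out, only 1 array of replicate 3 and 1 of replicate 4 remained, with -1.40 and -1.10 (mean -1.25, limma adjusted p = 0.192).

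MN5190342 and MN5189315 had similar series of values. MN5190342 gave 0.38, -1.13, -0.23 and -1.996 (mean -0.74 ± 1.04, SD, n = 4; limma adjusted p = 0.639), or a mean of -0.33 without replicate 4 and -1.12 without replicate 1. MN5189315 gave 0.17, -1.15, -0.32 and -1.90, and its mean of -0.80 was the lowest of the 165, or -0.43 without replicate 4. Both were most negative in replicate 4, next in replicate 2, and positive in replicate 1, and whether they share sequence is not known from the files. MN5189771 had 0.25, -0.44, -0.37 and -1.12 (mean -0.42), or a mean of -0.19 without replicate 4. Replicate 4 was the replicate without HPH signal, and the part of this in the ratios was not tested.

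**Figure D4:**
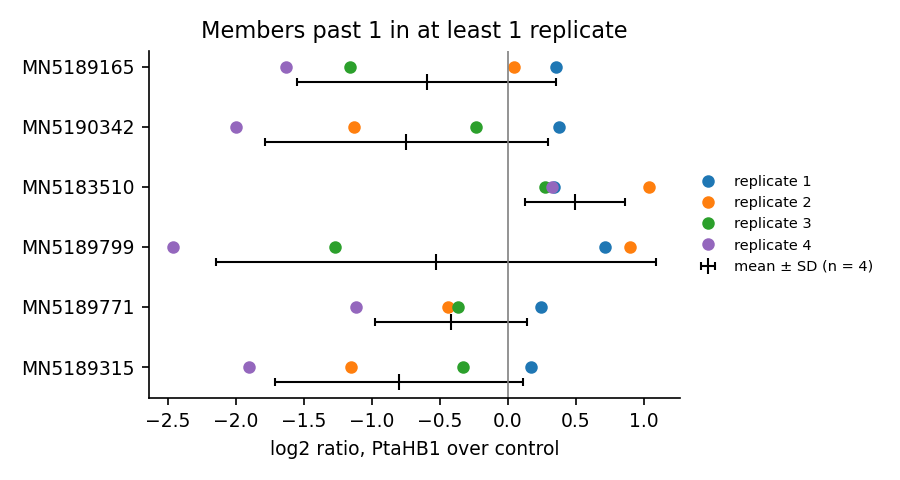
Log2 ratio of PtaHB1 over control (horizontal axis) in each of 4 replicates (coloured points) for the 6 probes past 1 in at least 1 replicate, with the mean ± SD below each. Replicate 4 is the lowest point for 5 of them, down to -2.46 for MN5189799, and only MN5183510 is positive in all replicates.

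Of the 7 bright probes that could not be ranked, MN5189945 and MN5189892 had mean log2 ratios of -0.96 and -0.84, lower than any of the 165 (limma adjusted p = 0.604 each). The fit had 7 arrays for MN5189945 and 6 for MN5189892. The ratio of MN5183942, also over 6 arrays, was -0.04. At a mean ratio beyond 0.3 in either direction there were 12 of the 165 probes (7.27%) and 145 of all probes (4.40%).

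The spread between spots was lower at higher levels, and the spread between replicates varied less with level. The median SD between the 2 spots of a probe on an array was 0.0897 for the 165 probes and 0.184 for all probes. The median SD between replicates was 0.196 and 0.189, and the median SE of the mean ratio was 0.099 and 0.098. With all ranked probes split by level into 10 groups of equal size, the SD between spots went from 0.381 in the dimmest to 0.0954 in the brightest. The SD between replicates was 0.225 in the dimmest and 0.19 in the brightest, and stayed between 0.172 and 0.225. A replicate value averages up to 4 spots. The arrays of a replicate deviated from the group means together, with correlations across the 165 probes of 0.680 to 0.853, against 0.285 to 0.526 across all probes, and arrays of different replicates had -0.515 to -0.059 across the 165. Subtracting the mean of each dye orientation pulls the values between different replicates below 0. All these are correlations over probes that share arrays, given as a description.

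**Figure D5:**
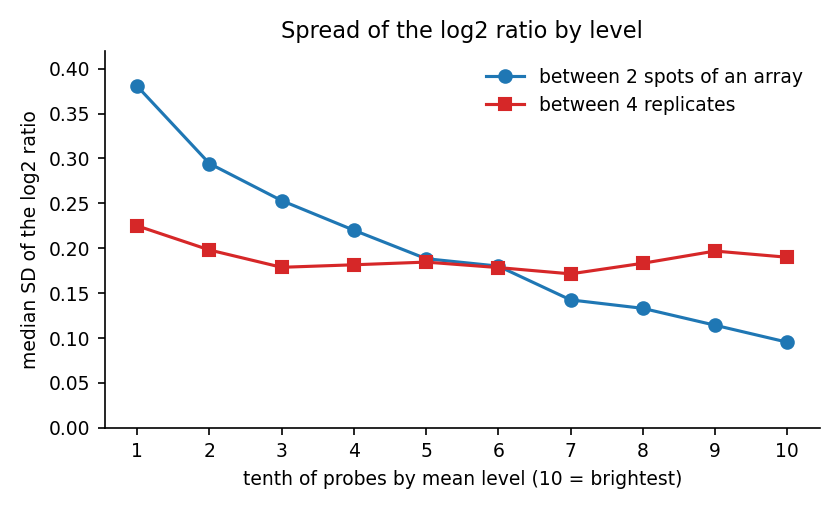
Median SD of the log2 ratio (vertical axis) between the 2 spots of a probe on an array and between 4 replicates, for 10 groups of probes of equal size from dimmest to brightest level (horizontal axis). The SD between spots goes from 0.381 to 0.0954, and that between replicates stays between 0.172 and 0.225.

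Some of the 165 probes were very steady. The lowest spread was that of MN5189889, with -0.08, -0.09, -0.05 and -0.13 (SD 0.034, n = 4), although its level was low on both arrays of replicate 4. MN5184669 had a mean of 0.03 (SD 0.038, n = 4), and MN5184974 had -0.11, -0.02, -0.03 and -0.02 (SD 0.042, n = 4).

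The dye effect on the ratio, which is the difference between the 2 orientations of a replicate divided by 2, was of the same size for the brightest probes as for all, with a median absolute value of 0.0737 and 0.0760. It passed the limma test for 0 of the 165 probes and for 0% of all probes (lowest adjusted p 0.0968). At an unadjusted p under 0.05 it did so for 38 of the 165 (23.0%) and for 637 of all probes (19.3%). MN5185686, with a dye effect of -0.35, was 1 of 3 probes of the 165 that shared the lowest adjusted p.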

How the data were processed

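UBI::PtaHB1 and control poplars were hybridised on 8 cDNA arrays, 4 numbered replicates in both dye orientations. The deposited scanner files hold spot intensity and local background intensity for either channel, without subtraction. The deposited value table holds log2 ratios made by the authors after background subtraction and composite normalization (column medians -0.0216 to 0.0156). Its scale was taken from the methods, and its direction, which the table does not state, from the scanner values.

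Normexp background correction (offset 50) was followed by loess fits (span 0.4) within the 24 print-tip groups, 1 on spot position and 1 on intensity, whose mean was subtracted (R 4.3.3, limma 3.58.1). Spots other than poplar probes, 1084 per array, had no weight. Marked spots were left out. The 2 spots of a probe and then the 2 arrays of a replicate were averaged, and lmFit and eBayes tested 4 values against 0 with Benjamini-Hochberg adjustment over 3298 probes. Both limma and SAM, the latter written for this work, were tested on simulated data. Shares were sums of intensity minus background. The number of arrays limits the precision.

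Deviations of same-numbered arrays from the group means correlated at 0.285 to 0.526 over all probes, so that the numbers were taken to pair the arrays. Those of differently numbered arrays correlated at -0.369 to 0.025. Subtracting the mean of each dye orientation pulls these latter values below 0, so they add no separate evidence for the pairing. The arrays fell in 3 scan sessions of 2, 5 and 1 arrays, and each array holds both genotypes. Alternatives covered background, normalization, marked, dim and saturated spots, replicate block, dye, scan session, value table, SAM and leaving out each replicate.

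The probes, their rule and the comparisons were chosen with earlier results of these data known. Probes named in the text were the 10 of highest level, 3 on each side of the limit, up to 5 in each direction with the largest mean ratio among those of 1 sign, and the 3 of lowest and of highest spread. Others, namely those past 1 in a replicate, those dim in replicate 4 and those without a rank, were named after their values were seen. The authors' own comparisons entered no choice or test, and gene names were not analysed here.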

Additional observations from a re-analysis of the deposited data

Results flagged for a closer look

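Among 32 sets of 4 replicate values examined for a replicate far from the rest, 2 held one. Chance gives about 1 in 20 for sets not chosen by these values. The 2 probes flagged here were named for their ratios, so that rate does not apply to them. The log2 ratio of MN5183510 was 1.04 in replicate 2, a distance from the nearest replicate of 0.905 of the whole range. The log2 ratio of MN5184974 was -0.1051 in replicate 1, at 0.889 of the range, in one of the probes with the lowest spread.

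Outside the poplar probes, 14 of 316 spots to which the scanner files give no name had a mean level at or above the lowest of the 165 probes, up to 14.30. What these spots hold is not known, and they entered no comparison.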

How the results depend on the processing

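Under all 16 alternatives of the limma test, 0 of the 165 probes were called. The lowest adjusted p among them ranged from 0.127 (scan session as block) to 0.931 (without replicate 3). With the replicate number as a block over 8 arrays it was 0.341 (within-pair correlation 0.253), and the block changed no call. Without replicate 4, 1 probe outside the 165 was called. SAM over 8 arrays as independent gave 1 of the 165 probes as lower, with 5 of 3236 probes called in all. On the deposited values, with their sign turned to PtaHB1 over control, it gave 2 of the 165 as higher and 2 as lower. Among all 3298 probes it gave 40 higher and 8 lower, which is 8 higher and 40 lower in the direction of the deposited table. With the block and a dye term, 3 of the 165 probes had a dye effect, against 0 in the main test. The share over all probes was not counted in that setting, so these 3 cannot be set against the array. The median ratio was -0.0222 with the intensity loess alone and -0.0576 with median centring, against -0.04. The signal shares without background subtraction were 33.5% for PtaHB1 and 34.2% for control, and with saturated probes left out, an alternative chosen after seeing the data, 32.2% and 32.5%. Single probes changed sign, all but MN5189799 with means near 0. With median centring MN5183717 had -0.12 and MN5183747 -0.00095. MN5189882 had 0.12 without saturated spots, a value from the only array left, 1 of replicate 2. In the 5 arrays of 1 scan session, an alternative added after seeing the data, MN5189882 had 0.0198, MN5190361 -0.0181 and MN5184974 0.0193. Leaving out each replicate gave -0.107 to 0.0328 for MN5189882, -0.034 to 0.038 for MN5183717, -0.0039 to 0.0789 for MN5183747, -0.152 to 0.0665 for MN5186380, -0.105 to 0.0654 for MN5190400 and -1.004 to 0.116 for MN5189799. The causes were not tested. Saturation limits the ratios of the brightest probes.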
